A study of Mus musculus with 2 samples.

Results

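The transcripts described here encode the TAK1 kinase complex and the MAP kinases that act below it in the response to bacterial lipopolysaccharide (LPS), a part of the wall of Gram-negative bacteria that innate immune cells sense. They were taken as every probe set of the deposited value table that the platform annotation assigned to 1 gene among 9: Map3k7 (TAK1), Tab1, Tab2, Tab3, Mapk3 (ERK1), Mapk8 (JNK1), Mapk9 (JNK2), Mapk14 (p38 alpha) and Mapkapk2 (MK2). Of the 9 genes, 8 had such a probe set and all 8 were measured, out of 11878 measured genes in all. No probe set was assigned to Mapk3 in the annotation used here, so Mapk3 was not analysed here. The other 8 genes had 26 probe sets, of which 21 were measured.

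Bone marrow cells from wild-type and miR-155-/- mice, labelled C57BL/6J or C57Bl/6, were grown into dendritic cells with 20 ng/ml GM-CSF for 7 days and then given medium with 10 ng/ml LPS. The groups were wild type + LPS and miR155-/- + LPS, with 1 Affymetrix array each and no untreated cells. The deletion is of the microRNA in the mice from which the marrow came; how long LPS was left on, how many mice of what age gave marrow and whether it was pooled are not stated in the labels. Because a genotype is 1 array, replicate spread is unknown and no genotype test was made, so every difference below compares these 2 arrays.

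TAK1 is the kinase at which the LPS receptor pathway forks. Receptor adaptors and the ubiquitin ligase TRAF6 build polyubiquitin chains, the adaptors TAB2 and TAB3 hold TAK1 on those chains, and active TAK1 then switches on the IKK kinases of the NF-kB branch and the MAP2 kinases that activate JNK and p38. In dendritic cells these kinases drive cytokine production, and MK2, a kinase activated by p38, controls the stability and translation of cytokine mRNAs. They are switched by phosphorylation, which transcript levels do not show.

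Tab2 is a reported target of miR-155, so the sequence of the deleted microRNA is shown. Both arms are from RefSeq (GRCm38.p6, plus strand), with the seed, bases 2 to 8, in capitals. The 5p arm lies at chr16:84714143-84714165 and the 3p arm at chr16:84714182-84714202.
mmu-miR-155-5p: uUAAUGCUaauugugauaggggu
mmu-miR-155-3p: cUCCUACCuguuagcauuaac
A transcript pairs with the seed of the 5p arm through its reverse complement, which is AGCATTA in DNA letters. The transcripts' own target sites were not searched.

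Signals below are intensities after quantile normalization, and a difference is the log2 knockout signal less the log2 wild-type signal. A probe set was taken as measured if either array exceeded a floor of 67.6, the median of all normalized values, and a gene was represented by its probe set with the highest mean. The median intensity as deposited was 58.4 on the wild-type and 78.3 on the knockout array, and a gene at the median was 0.54 higher on the knockout array before normalization and 0.01 after it. The only error estimate these arrays offer is how far probe sets for 1 gene disagree, an SD of 0.29 from 11653 probe sets and 4410 genes (the probe set SD); it ranged from 0.34 in the dimmest to 0.25 in the brightest genes. Variation between mice or cultures is not part of it.

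The members differed little between the arrays, with the ubiquitin-binding adaptors Tab2 and Tab3 at the top. Of the 8 measured members, 6 were higher and 2 lower in knockout cells, with a median difference of 0.07. After the same normalization 51.5% of all measured genes were higher, with a median of 0.01. The members' counts were 8 and 0 without scaling or with scaling on hybridisation controls, and 7 and 1 with centring on the median. The median gene was then itself 0.54, 0.23 and 0.14 higher. The share of all genes higher is not given here for the last 2 scalings. After quantile normalization only Tab3 was at least 1.3-fold higher, 1 of 8 where 11.5% of all measured genes were. None was at least 1.3-fold lower, where 10.6% of all genes were. None was 2-fold different in either direction, where 0.572% of all genes were 2-fold higher and 0.615% lower. The members' counts thus lie near those of all genes. In bulk RNA, fewer cells of a type and less RNA per cell cannot be told apart. Of the 8 differences, 6 were smaller than the probe set SD, as were those of 7989 of all 11878 measured genes. The exceptions among the members were Tab2 and Tab3. Without scaling, all 8 members were at least 1.3-fold higher, but so were 68.4% of all genes, and 92.9% were higher by some amount and 1.38% at least 1.3-fold lower, against none of the members.

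**Figure D1:**
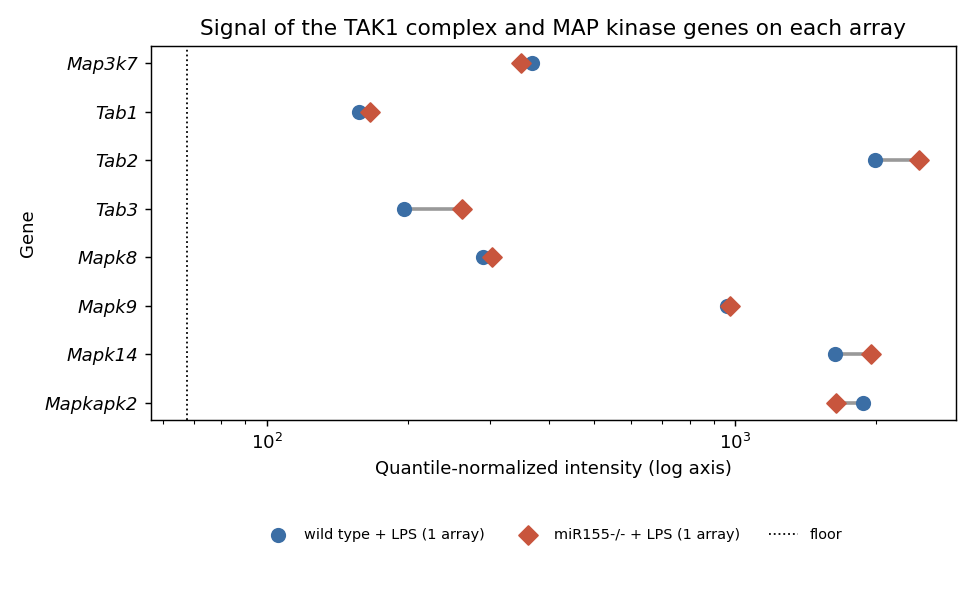
Quantile-normalized intensity (log axis) of the 8 measured genes on the wild-type array (circles) and the knockout array (diamonds), with the floor of 67.6 as a dotted line; each gene is shown by 1 probe set, and signals of different genes are not comparable. The widest gaps are those of Tab3 and Tab2, with the knockout array higher, and Mapkapk2 is lower on the knockout array.

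In the TAK1 complex, Tab2 and Map3k7 alone had several measured probe sets, and those of Tab2 shared a direction. At the brighter probe set of Tab2 the normalized intensity was 1987 on the wild-type and 2471 on the knockout array, 1.24-fold higher, a difference of 0.31. The other probe set read 672 and 805, a difference of 0.26. Both placed the knockout array higher by a similar amount, with an SD of 0.04 between them (n = 2 probe sets). A difference at least as high was seen in 15.6% of all measured genes. The deposited signals at the brighter probe set were 1615 and 3033, a difference of 0.91, above the 0.54 of the median gene on that scale.

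Tab3, the adaptor that acts beside TAB2 in binding polyubiquitin, had the highest difference of the 8. Its only probe set read 197 on the wild-type and 261 on the knockout array, 1.33-fold higher, a difference of 0.41. The knockout array was higher by more than the probe set SD, but no second probe set was there to compare, and a difference at least as high was seen in 10.1% of all measured genes. With the floor at the 75th percentile, 221.0, the wild-type signal of Tab3 lay below the floor and the difference became a lower bound of 0.24, so that no member passed 1.3-fold. Tab3 exceeded Tab2 by 0.09 in its difference, against 0.42 for the SD of a gap between 2 genes; a constant scaling of either array cancels in that gap.

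Map3k7, the kinase itself, and Tab1, an adaptor that binds it directly and helps activate it, had differences smaller than the probe set SD. Map3k7 read 368 in wild-type and 349 in knockout cells at the probe set used, a difference of -0.08, and its sign turned to 0.50 without scaling, 0.08 with centring on the median and 0.17 with scaling on hybridisation controls. The median gene was at 0.54, 0.14 and 0.23 on those scales. The other measured probe sets of Map3k7 did not share 1 direction. Their differences were 0.41 (227 against 302), -0.12 (117 against 107) and at least 0.31 lower at a probe set that exceeded the floor on the wild-type array alone. The SD over these 4 probe sets was 0.31, wider than the difference at the one used. Tab1 read 157 and 166, a difference of 0.08, and its other probe set, of the _x_at type that can bind several transcripts, lay below the floor on both arrays. The 4 genes of the complex had a median difference of 0.20.

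**Figure D2:**
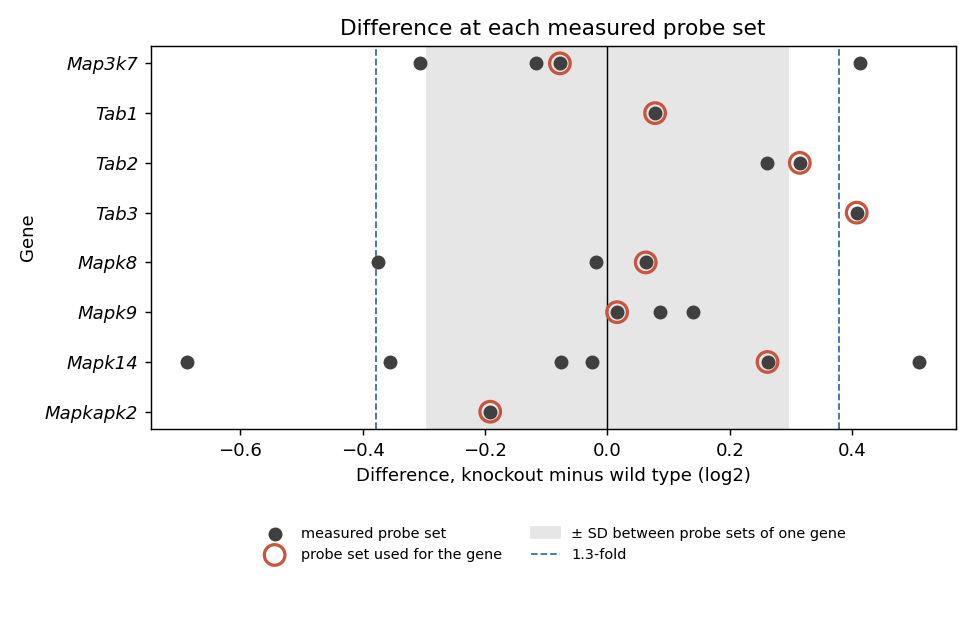
Difference between knockout and wild type (log2) at each of the 21 measured probe sets of the 8 genes, with the probe set used for the gene ringed, the probe set SD of 0.29 as a grey band and 1.3-fold as dashed lines. Both Tab2 probe sets lie together on the right, those of Mapk9 lie close to 0, and those of Mapk14 spread from -0.69 to 0.51.

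Among the MAP kinases, the genes of the JNK pair were nearly level between the arrays at the probe sets used. Mapk9, which encodes JNK2, read 963 in wild-type and 974 in knockout cells, a difference of 0.02. Its other probe sets gave 351 against 386 and 187 against 198, differences of 0.14 and 0.09. The 3 probe sets agreed within an SD of 0.06, and each difference was under the probe set SD. Mapk8, which encodes JNK1, read 289 and 302 at the probe set used, a difference of 0.06. A second probe set of like brightness read 264 and 204, a difference of -0.37, and another lay just above the floor on the wild-type array alone, at 68.5. Probe sets for Mapk8 therefore disagreed in sign, and their mean difference was -0.11. Mapk9 minus Mapk8 came to -0.05 in their differences, against the SD of 0.42 for a gap between 2 genes.

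Mapk14, which encodes p38 alpha, the p38 form best known in inflammatory responses, had the widest disagreement between probe sets among the members with several. At the brightest one its normalized intensity was 1632 on the wild-type and 1957 on the knockout array, a difference of 0.26. Of its 6 measured probe sets 2 were higher and 4 lower. The second one higher, of the _a_at type, read 107 and 152, a difference of 0.51. Probe sets at intermediate signal read 324 against 253, a difference of -0.35, and 307 against 302, a difference of -0.02. A dim one exceeded the floor on the wild-type array alone (109) and was at least 0.69 lower, and another read 94.7 and 89.8. The SD over the 6 was 0.43 and their mean difference was -0.06, so the direction for Mapk14 depended on the probe set. Which transcript forms each probe set reads was not tested.

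Mapkapk2 encodes MK2, which acts below p38 on proteins that bind cytokine mRNAs. Its single probe set read 1878 on the wild-type and 1645 on the knockout array, 1.14-fold lower, a difference of -0.19. This was the lowest difference of the 8 and lay within the probe set SD; 23.9% of all measured genes had a difference at least as low. Its difference was 0.41 without scaling and 0.08 with scaling on hybridisation controls, under the 0.54 and 0.23 of the median gene on those scales. The 4 measured kinases from Mapk8 to Mapkapk2 had a median difference of 0.04.

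**Figure D3:**
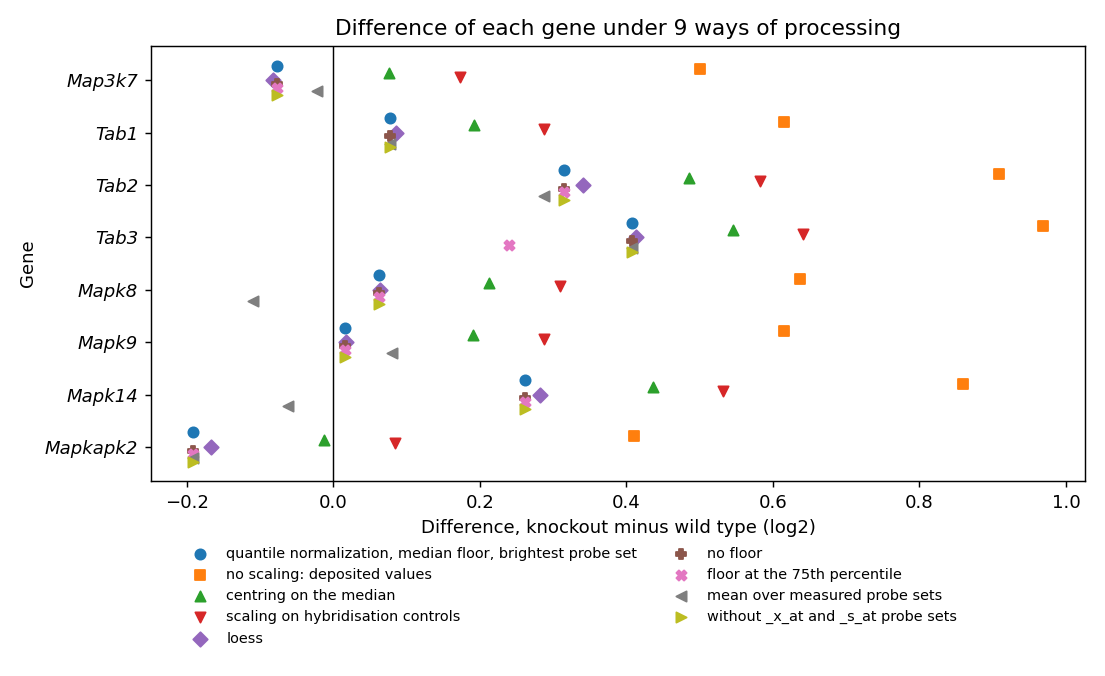
Difference between knockout and wild type (log2) of each of the 8 genes under 9 ways of processing, 1 marker type for each. Tab2 and Tab3 lie to the right of 0 under each way run, from 0.29 to 0.91 and from 0.24 to 0.97, whereas Map3k7, Mapk8, Mapk14 and Mapkapk2 lie on both sides of 0.

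The promoters of Tab2 and Tab3 are shown because these members had the highest differences. The sequences are the 250 bases before the annotated starts, from RefSeq (GRCm38.p6), read in the direction of the gene; 7 of the 9 genes matched an entry, with 10 windows between them. Capitals mark matches, on either strand, to the GC box GGGCGG, the CCAAT box CCAAT, the AP-1 site TGANTCA or the cAMP response element TGACGTCA. Tab2 has an upstream start (chr10:7956124-7956373, minus strand) and a downstream start (chr10:7953066-7953315, minus strand), and the Tab3 window is chrX:85573772-85574021 on the plus strand.
Tab2 upstream start: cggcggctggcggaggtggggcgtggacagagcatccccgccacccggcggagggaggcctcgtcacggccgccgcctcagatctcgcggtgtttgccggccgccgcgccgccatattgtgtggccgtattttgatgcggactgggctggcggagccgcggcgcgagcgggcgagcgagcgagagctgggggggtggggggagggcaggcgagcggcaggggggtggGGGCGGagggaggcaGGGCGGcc
Tab2 downstream start: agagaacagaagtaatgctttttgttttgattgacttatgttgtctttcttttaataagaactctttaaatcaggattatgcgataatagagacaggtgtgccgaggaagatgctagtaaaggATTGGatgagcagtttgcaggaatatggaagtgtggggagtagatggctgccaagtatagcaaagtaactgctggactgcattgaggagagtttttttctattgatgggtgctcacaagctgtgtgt
Tab3: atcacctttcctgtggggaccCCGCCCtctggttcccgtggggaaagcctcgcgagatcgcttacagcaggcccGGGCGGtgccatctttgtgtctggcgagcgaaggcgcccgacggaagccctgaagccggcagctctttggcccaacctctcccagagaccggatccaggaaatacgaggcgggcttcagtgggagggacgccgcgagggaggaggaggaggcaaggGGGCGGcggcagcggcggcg
The upstream Tab2 window was 76.8% G or C with 33 CpG pairs and 2 GC boxes, and the Tab3 window 68.4% with 24 CpG pairs and 3 GC boxes, beside a median of 52.4% and 6 CpG pairs over 32851 windows. The downstream Tab2 window was poorer, at 39.6% with 2 CpG pairs, no GC box and 1 CCAAT box. A GC box was found in 6 of the 10 windows and in 32.7% of all windows, and a CCAAT box in 3 of 10 and 33.8%. Neither an AP-1 site (6.75% of all windows) nor a cAMP response element (1.55%) was found in the 10 windows; this says only that those letters are not there. Overlaps between motifs were allowed, and a match is not a bound site.

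The remaining genes of the pathway were read from lists ordered by tier, from the receptor to the substrates. After normalization no gene of these lists was 2-fold different in either direction. The counts of higher and lower genes below depend on the scaling: without it each list median was above 0 (0.35 to 0.76, beside 0.54 for all genes), and the MAP2 kinases, lower in 4 of 5 cases here, were higher in 4 of 5 with centring on the median and the regulators that switch TAK1 off in 9 of 11. The median of all genes was itself 0.14 with that centring. Upstream of TAK1, after quantile normalization, 10 of 19 measured adaptor and ubiquitin enzyme genes had higher and 9 lower signal in knockout cells (median 0.00). The LPS co-receptor gene Cd14 was the most different of them, 10690 against 7911, a difference of -0.43. Peli1, a ubiquitin ligase gene, had a difference of 0.40 at the probe set used but 1 of 4 probe sets higher, and Birc2, another ubiquitin ligase gene, one of 0.33. Traf6, whose product makes the chains that TAB2 and TAB3 bind, read 282 and 230, a difference of -0.30, with 2 of 4 probe sets lower. Regulators that switch TAK1 off were lower in 8 of 11 cases with a median of -0.05, and each of the 11 lay within the probe set SD at the probe set used. With averaged probe sets the list median was -0.16. Cyld (-0.35) and Ppm1b (-0.31), each with 3 of 3 probe sets lower, then exceeded that SD, while Ppp2ca (0.08) and Rbck1 (0.07) were higher. That SD is the spread of single probe sets and not the error of an average. At the probe sets used, the most different regulators were Tnfaip3, which encodes the ubiquitin-editing enzyme A20 (2490 against 2062, -0.27, 2 of 2 probe sets lower), Usp18 (-0.25) and Usp4 (-0.13, 2 of 2 lower), both deubiquitinase family genes.

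The 14 other MAP3 kinase genes split into 8 higher and 6 lower (median 0.05). Map3k1, a kinase that can feed the JNK branch, was the most different, 268 against 159, a difference of -0.75, but the other measured probe set read 0.33 higher. Map3k4 had a difference of 0.43 with 2 of 4 probe sets higher, and Map3k12 one of 0.42 with 2 of 2. The MAP2 kinase genes, whose products activate the MAP kinases, were lower in 4 of 5 cases with a median of -0.06. Map2k1, the ERK-activating MEK1 gene, read 2465 and 1908, a difference of -0.37 at its only measured probe set, which was -0.20 with centring on the median, -0.10 with scaling on hybridisation controls, -0.35 with loess and 0.22 without scaling. The median gene was at 0.14, 0.23, 0.01 and 0.54 in those 4 cases. Map2k2, which encodes MEK2, had a difference of 0.23 with 2 of 2 probe sets higher. Map2k4, which activates JNK, had one of -0.13 with 2 of 2 lower.

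The 5 other measured MAP kinase genes split into 3 higher and 2 lower (median 0.01). Each lay within the probe set SD at the probe set used, except that Mapk12 gave only a bound and may differ by more. Mapk13, a p38 family gene, read 138 and 119, a difference of -0.21, and Mapk12, of the same family, exceeded the floor on the wild-type array alone and was at least 0.13 lower. Mapk6, an atypical MAP kinase gene, had a difference of 0.12 at the probe set used, with 1 of 3 probe sets higher.

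Kinases that act below the MAP kinases lay on both sides of 0. Of 6 measured genes for other kinases activated by MAP kinases, 3 lay higher and 3 lower (median 0.03). Rps6ka3, which encodes the ERK-activated kinase RSK2, read 558 on the wild-type and 905 on the knockout array, 1.62-fold higher. Both measured probe sets of Rps6ka3 were higher, by 0.45 and 0.70. Its difference was 1.31 without scaling, 0.88 with centring on the median, 0.98 with scaling on hybridisation controls and 0.71 with loess. The median gene was at 0.54, 0.14, 0.23 and 0.01 on those scales. Rps6ka5, which encodes the nuclear kinase MSK1, had a difference of 0.52 at the probe set used, with 1 of 2 higher. Mapkapk3, the close relative of Mapkapk2, read 2216 and 1642, 1.35-fold lower, and both of its probe sets were lower, with differences of -0.24 and -0.43. The difference of Mapkapk3 at the probe set used stayed below 0 with centring (-0.24), scaling on hybridisation controls (-0.15) and loess (-0.39), and was 0.18 without scaling, under the 0.54 of the median gene.

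The list of scaffold genes, whose products hold MAP kinase cascades together, had a median difference of 0.18, and 9 of 11 were higher. Map2k1 (-0.37), the MEK1 kinase gene, is also in this list and is 1 of the 2 lower. The list median was 0.05 with averaged probe sets and 0.08 without _x_at and _s_at probe sets. At the probe sets used, the most different genes of the list were Mapk8ip1, a JNK scaffold gene (141 against 87.6, -0.68), Ksr1, an ERK scaffold gene (206 against 310, 0.59), and Mapk8ip3 (104 against 146, 0.49). Each of these 3 had at least 1 measured probe set with the opposite sign. In the IKK branch, 4 of 5 genes lay lower (median -0.03). The most different were the NF-kB inhibitor genes Nfkbib (1668 against 1219, -0.45) and Nfkbie (-0.22), with 1 of 2 probe sets higher in both, and Ikbkg, the regulatory IKK subunit gene (0.16, with 3 of 6 higher). Of 15 genes for MAP kinase substrates 6 lay higher and 9 lower (median -0.02). Lsp1, a leukocyte actin-binding protein and MK2 substrate, read 3869 and 2664, a difference of -0.54, Elk4, an ERK-activated transcription factor, had one of 0.40 with 2 of 3 probe sets higher, and Jund, an AP-1 subunit, one of 0.39.

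**Figure D4:**
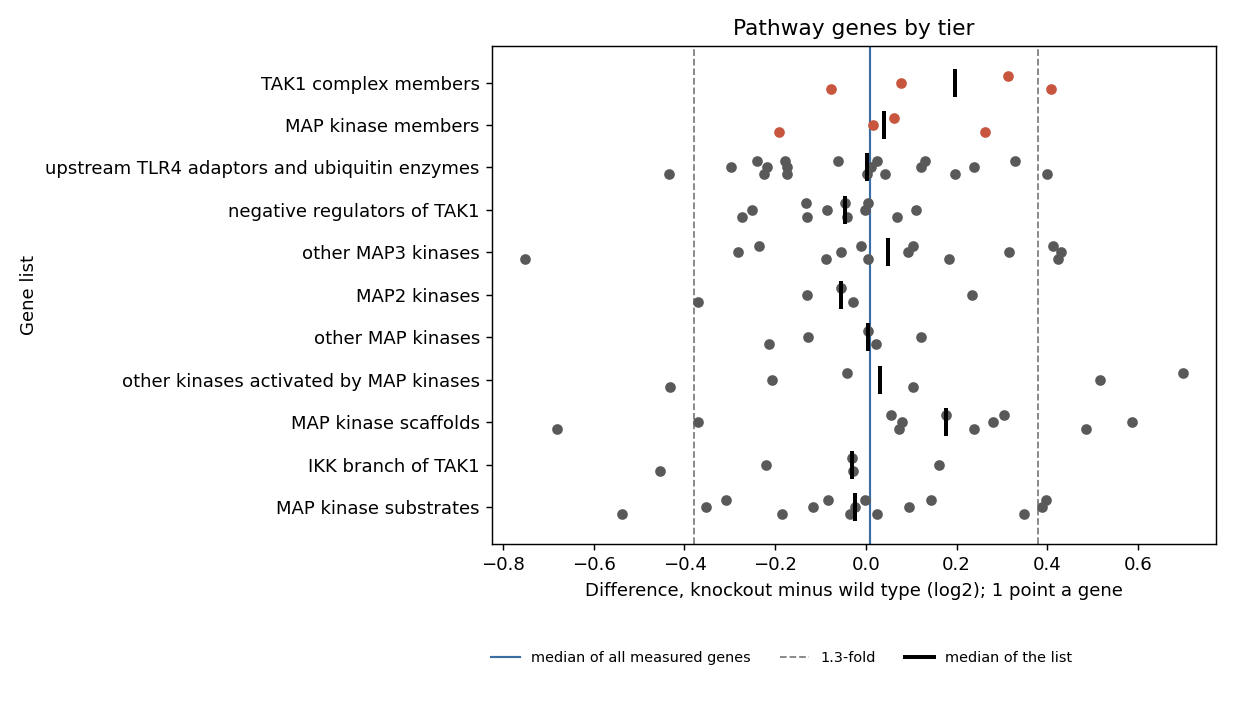
Difference between knockout and wild type (log2) of each measured gene (points) by pathway list, with the list medians as black bars, the median of all measured genes as a blue line and 1.3-fold as dashed lines; Map2k1 is in 2 lists. The list medians lie between -0.06 and 0.20, and single genes reach from -0.75 (Map3k1) to 0.70 (Rps6ka3).

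Markers of the cells such a culture can hold differed between the arrays. The growth protocol names macrophages where every other label names dendritic cells, and some markers of both were bright. The dendritic cell integrin gene Itgax read 4290 and 5331, and the macrophage receptor gene Csf1r 9826 and 11268. Other markers of both were dimmer, such as Zbtb46 of dendritic cells (188 and 140) and Mrc1 of macrophages (138 and 288). All 10 dendritic cell markers were measured (Flt3 on the knockout array alone), with 7 lower and a median of -0.23, and Irf8 (-0.66) and Ccr7 (-0.55) were the most different. Their signals summed to 21625 on the wild-type and 18296 on the knockout array. Of 9 measured macrophage and monocyte markers 7 were higher, with a median of 0.20 and sums of 39830 and 43022, led by Mrc1 (2.08-fold higher) and Ccr2 (1.78-fold at the probe set used, with 3 of 4 higher and a median difference of 0.13 over them). Granulocyte markers were lower in 7 of 10 cases, with a median of -0.35 and sums of 11697 and 13843, of which S100a8, one of the higher ones, gave 4517 and 6093, and Ltf (at least 0.72 lower) and Prtn3 (-0.56) were the most different. All 6 measured mast cell and basophil markers were lower (sums 3317 and 1853), led by Mcpt8 (at least 2.68-fold) and Cpa3 (at least 2.21-fold), while Fcer1a, Tpsb2 and Mcpt4 lay below the floor on both arrays. All 7 measured B and plasma cell markers were lower (sums 2158 and 670), led by Ighm (-2.37 at the probe set used, with 5 of 8 probe sets lower and a median of -0.045 over them) and Jchain (-2.24, 1 probe set), with Cd79a and Pax5 below the floor on both. Of 3 measured T and NK cell markers (sums 475 and 372), Thy1 was 2.17-fold lower and Cd8a had a difference of 0.24, and Cd3e, Cd3d and Cd3g lay below the floor on both. Without scaling, 8 of the 10 dendritic cell, 9 of the 9 macrophage and monocyte and 9 of the 10 granulocyte markers were higher (medians 0.34, 0.64 and 0.18, beside 0.54 for all genes), 2 of the 5 measured mast cell and basophil markers were higher, and the 7 B and plasma cell markers were still lower. With scaling on hybridisation controls 6 of the 10 dendritic cell markers were higher, with a median of 0.015 beside 0.23 for all genes. The part of these cells in the values of the TAK1 and MAP kinase genes was not tested.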

How the data were processed

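Total RNA (6 ug) from each culture was labelled with biotin and hybridised to an Affymetrix array, per the labels' protocols. The authors deposited a linear signal intensity for 45101 probe sets on each array; the labels name no algorithm, scaling or detection call. The array medians differed, so after removal of 64 controls the log2 values of 45037 probe sets were quantile normalized, which removes any difference in total signal, and values under the median (67.6) were set to it. Of these, 34945 probe sets named 1 gene, 932 several, and symbols were updated through Entrez identifiers to GRCm38.p6. Named genes were all members with every measured probe set, the 3 most different genes of each pathway list and the 2 most different of each marker list, with defining markers at or below the floor. Traf6, Cyld, Ppm1b, Ppp2ca, Rbck1, Itgax, Csf1r, Flt3, Zbtb46 and S100a8 fall outside this rule and were added after their values were seen. Members and lists were chosen with earlier results of these data known. No p-value was computed; size rules were 1.3-fold and 2-fold. Normalization was tested on simulated data with a constant shift between the arrays, which does not cover a shift that varies with signal. The number of arrays limits the precision. Python 3.11.15, numpy 2.4.6, pandas 2.3.3 and statsmodels 0.14.6 (loess) were used. The alternatives tried were 4 other scalings, 2 other floors, averaged probe sets and removal of _x_at and _s_at probe sets.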

Additional observations from a re-analysis of the deposited data

How the results depend on the processing

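No paired analysis was possible because each genotype has 1 array. Of 199 values under 8 alternatives, 25 moved by more than the probe set SD (counts by over 1.5 times), 21 of them without scaling. Tab3, the only member past 1.3-fold after quantile normalization, did not change sign. Map3k7, Mapk8, Mapk14 and Mapkapk2, each short of 1.3-fold, lay on both sides of 0. The members' own differences could not change without the floor or without _x_at and _s_at probe sets. The probe sets used lay above the floor on both arrays and were of neither type. Without scaling, the differences were 0.50 for Map3k7, 0.62 for Tab1, 0.91 for Tab2, 0.97 for Tab3, 0.64 for Mapk8, 0.61 for Mapk9, 0.86 for Mapk14 and 0.41 for Mapkapk2, the members' median was 0.63 and 8 members were at least 1.3-fold higher. The list medians were then 0.76 for the TAK1 complex, 0.63 for the MAP kinase members, 0.51 for upstream adaptors, 0.54 for negative regulators of TAK1, 0.62 for other MAP3 kinases, 0.52 for MAP2 kinases, 0.58 for other MAP kinases, 0.64 for other kinases activated by MAP kinases, 0.76 for scaffolds, 0.35 for the IKK branch and 0.54 for substrates, where the median of all measured genes was 0.54. That shift is the unscaled difference between the arrays. Centring on the median and scaling on hybridisation controls left shifts of 0.14 and 0.23 at the median gene, and 3 members were at least 1.3-fold higher under either: Tab2 (0.49 and 0.58), Tab3 (0.54 and 0.64) and Mapk14 (0.44 and 0.53). The share of all genes past 1.3-fold is not given here for these 2 scalings. With the floor at the 75th percentile 0 members were at least 1.3-fold higher, because the wild-type signal of Tab3 fell below that floor, and Tab1 was not measured. With averaged probe sets Mapk14 moved to -0.062, since 4 of its 6 probe sets were lower. Probe sets close to the floor limit what can be read for the dim ones.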
